A study of Mus musculus with 4 samples.

Results

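The regions described here are 427 islands of histone H3 lysine 36 trimethylation (H3K36me3) that were called in myocytes with an enhancer deletion and had no base in common with any island called in wild-type myocytes. They were chosen by a rule: islands of the mutant list of at least 5 kb and under 20 kb, on chromosomes 1 to 19 without 4, 6, 14 and 15, that share no base with the wild-type list. The rule took them from 13064 mutant islands of these lengths and chromosomes, and from 69798 mutant and 58326 wild-type islands in all. The mutant cells lack an enhancer of H19 and Igf2 that the submitters describe as muscle-specific, and the labels do not say whether 1 or both copies are deleted. Both genotypes are FVB mice, from whose skeletal muscle myoblasts were taken on postnatal day 4, grown for 5 to 10 passages and led to differentiate over 24 hours without the growth factor supplement. Each genotype has 1 ChIP-seq library for the mark and 1 input library, and the input libraries were not analysed here.

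H3K36me3 is laid down by the methyltransferase SETD2, which travels with elongating RNA polymerase II, so the mark lies over the bodies of transcribed genes and is usually stronger towards their ends. It forms broad, uneven domains, in contrast to the sharp peaks of promoter marks. The islands were called with SICER, which joins enriched windows of 200 bp across gaps of up to 600 bp. A gene body with a weak mark can therefore appear as several islands with gaps between them. Which genes lie under the islands, and whether genes that define myocytes are marked, was not analysed here, because no annotation of the files' build, mm9, was used.

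The score of an island is the authors' deposited value, a sum over its enriched windows of the negative natural log of a Poisson probability. From the scores of islands 1 window long, the mean depth was solved as 3.11 reads per window in the mutant library and 2.82 in the wild type. At the mutant depth a window with 6 reads scores 2.88, one with 8 reads 4.64 and one with 10 reads 6.88. Scores are given below as score per window, the island's score divided by its length in windows, where windows in gaps add nothing. Between the lists, only the lowest score was set side by side. The lists differ in depth and in their lowest score, 22.6 in the mutant and 30.3 in the wild type. There was 1 library for each genotype and so no spread between replicates. Genotype and library cannot be told apart, and because the absence from the wild-type list chose the regions, no test of it is given.

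The 427 mutant-only islands made up 3.27% of the mutant islands of their lengths and chromosomes (exact 95% binomial interval 2.97% to 3.59%, counting error only). In the other direction, 892 of 15172 wild-type islands of these lengths, or 5.88% (5.51% to 6.27%), had no base in the mutant list. Among islands of any length on the same chromosomes the order was the other way, with 25.8% of 54525 mutant and 16.6% of 44597 wild-type islands. The lists crossed between 2 and 4 kb. Mutant islands from 2 to under 3 kb lacked a counterpart in 35.3% of cases and wild-type ones in 24.8%, whereas from 3 to under 4 kb the shares were 21.7% and 23.2%. The 427 islands are thus the long end of 14074 mutant-only islands of any length.

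Most mutant-only islands were close to the lower length limit. Their median length was 5.8 kb, with quartiles of 5.2 and 6.8 kb, and the longest had 19 kb. Islands under 6 kb made up 229 of the 427 (53.6%), against 25.1% of the 12637 mutant islands that overlapped the wild-type list. Islands of 10 kb or more numbered 19 (4.45%), against 3380 (26.7%). The share of mutant islands without a counterpart fell with each length class, from 6.73% at 5 to under 6 kb and 3.62% at 6 to under 8 kb to 1.48% at 8 to under 10 kb, 0.602% at 10 to under 15 kb and 0.44% (4 of 909) at 15 to under 20 kb. Wild-type islands had shares of 11.8%, 6.54%, 2.64%, 0.978% and 0.192% in the same classes. The rule itself favours short islands in both lists, because a longer island has more bases that could meet an island of the other list. Together the mutant-only islands covered 2.73 Mb, 2.46% of the length of all mutant islands of their kind.

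The limits of the rule cut through a continuous set. The 57 members of exactly 5000 bp had scores from 35.8 to 163, with a median of 65.2, and the 71 mutant-only islands of 4800 bp, just outside, had scores from 30.2 to 144, with a median of 72.0. The highest in the first group lay on chromosome 12 (106233001 to 106238000, mm9) with 6.51 per window, 4 kb from a wild-type island. The highest in the second lay on chromosome 13 (60722601 to 60727400) with 6.01 per window, inside a run of mutant-only islands described below. At the upper limit, 4 mutant-only islands of 20 kb or more were left out, 3 on chromosome 5 and 1 on chromosome 10, with 4.88 to 7.56 per window. At the overlap limit, 6 members touched a wild-type island without sharing a base, and 8 islands were left out that shared a single window, with a median score of 71.2.

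Signal in the mutant-only islands was low for mutant islands of their lengths. Their median score per window was 2.83 (5th to 95th percentile 1.80 to 5.05), and the median of the mutant islands that overlapped the wild type was 4.41 (2.51 to 8.32). Windows in gaps lower these values, so they do not translate into reads per enriched window. The lower median of the mutant-only islands held within each length class. At 5 to under 6 kb the medians were 2.79 and 3.97, at 6 to under 8 kb 2.78 and 4.24, at 8 to under 10 kb 3.11 and 4.47, and at 10 to under 15 kb 3.10 and 4.86. In the longest class, with 4 members, they were 4.82 and 5.00. In all, 41 of the 427 (9.60%) reached the median of the overlapping islands. By total score, which also grows with length, 394 (92.3%) were in the upper 50% of the whole mutant list, 15 were in its upper 10%, and 1 scored below the lowest wild-type score. That upper 50% began at a score of 51.9. The overlapping islands had a 5th percentile of 74.6, so nearly all of them were in it too, and their 75th percentile, 264, lay in the upper 10%. The median total score was 86.5 in the mutant-only and 171 in the overlapping islands. Wild-type-only islands of the same lengths were also the weaker ones of their list, with a median of 2.23 per window against 3.83.

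When the 13064 mutant islands were ordered by score per window and cut into 10 equal groups, the share without a counterpart went from 15.4% in the lowest group to 0.306% in the highest. The lowest group, up to 2.78 per window, held 201 of the 427, and the next 88. The 5 highest groups together held few, with 17, 8, 10, 5 and 4 from the sixth to the highest. The 4 in the highest group were the 4 strongest mutant-only islands, named below.

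**Figure D1:**
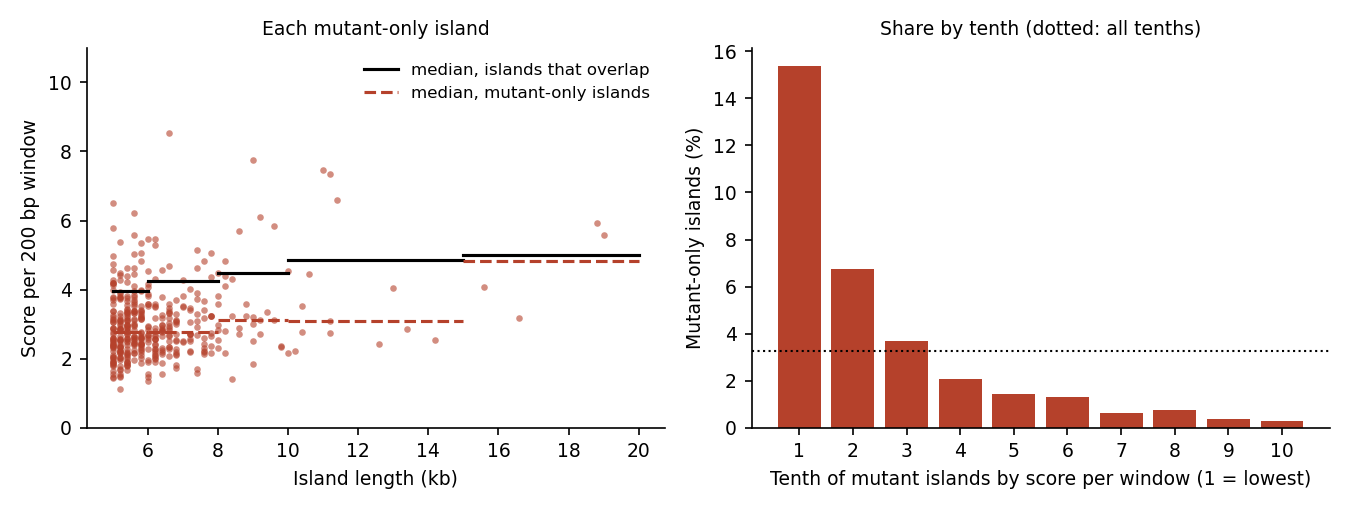
Left, length in kb and score per 200 bp window of each of the 427 mutant-only islands (points), with the median of mutant-only islands (dashed) and of mutant islands that overlap the wild type (solid) in 5 length classes. Right, the share of mutant-only islands in each of 10 equal groups of mutant islands by score per window. The share falls from 15.4% to 0.306%, and the dotted line is the share over all groups, 3.27%.

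Mutant-only islands occurred on all 15 chromosomes, from 15 on chromosome 16 to 51 on chromosome 1. As a share of the mutant islands of these lengths they ranged from 2.12% on chromosome 16 (interval 1.19% to 3.48%) to 4.99% on chromosome 1 (3.74% to 6.51%). The interval held the pooled 3.27% on 14 chromosomes, and chromosome 1 was the exception. Each of the 15 intervals can miss by counting error, and the pooled share includes chromosome 1, so 1 miss does not by itself set it apart. Chromosome 18 came next with 4.20% (25 of 595), then chromosomes 10 and 7 with 3.67% and 3.65%, and the intervals of these 3 overlapped. The median score per window lay between 2.44 on chromosome 16 and 3.24 on chromosome 5. On chromosome 5, 8 of the 39 islands belong to a single run, described below, with 3.18 to 8.52 per window. On each of the 15 chromosomes the share of mutant-only islands was below that of wild-type-only islands, which ranged from 4.93% to 7.65%.

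**Figure D2:**
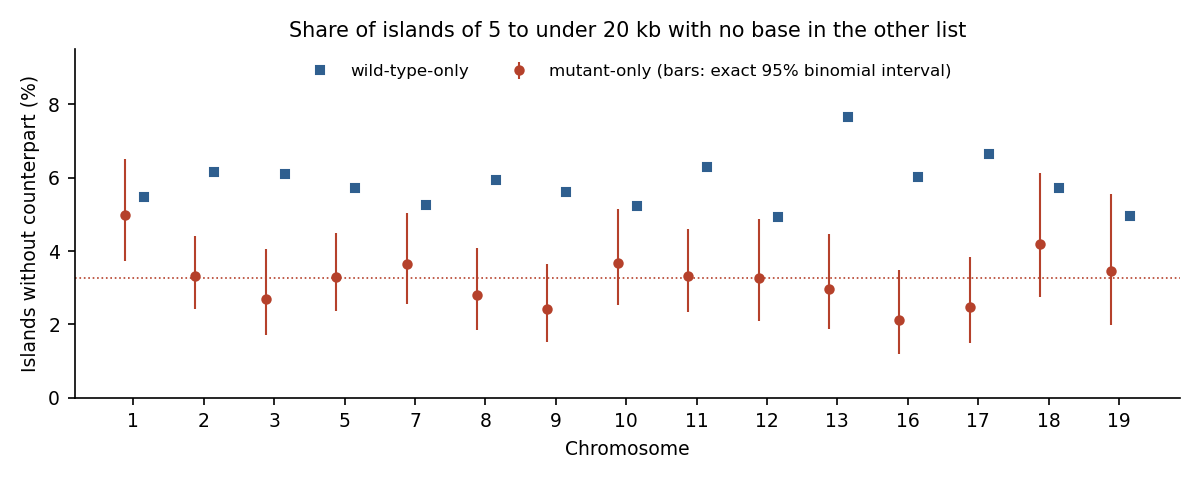
Share of islands of 5 to under 20 kb that have no base in the other list, by chromosome. Circles are mutant-only islands with exact 95% binomial intervals, squares are wild-type-only islands, and the dotted line is the pooled mutant-only share of 3.27%. Each circle lies below the square of its chromosome, and chromosome 1 has the highest circle, at 4.99%.

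Within chromosomes the islands were spread thinly with a few denser stretches. Of 201 segments of 10 Mb that held a mutant island of these lengths, 38 had no mutant-only island and 57 had 1, and the median was 2. The 25 segments with 5 or more held 164 of the 427. The most, 11 of 56 (19.6%, interval 10.2% to 32.4%), lay on chromosome 8 from 30 to 40 Mb, where 7 of 58 wild-type islands were wild-type-only. Chromosome 12 from 20 to 30 Mb had 9 of 42 (21.4%, interval 10.3% to 36.8%), against 1 of 30 in the wild type. That segment held 710 kb of islands in the mutant and 516 kb in the wild type, a ratio of 1.38, where the middle 50% of segments had ratios between 0.935 and 1.03. In the chromosome 8 and chromosome 12 segments most mutant-only islands lay in runs of neighbours, described below, while the intervals treat islands as independent. Chromosome 5 from 110 to 120 Mb had 10 of 115, of which 8 form the largest run. H19 and Igf2 lie in the distal part of chromosome 7. In the last 5 Mb of islands on that chromosome 0 of 47 mutant islands were mutant-only, which allows a share of up to 6.38% by 3 counts of 47 and up to 7.55% by the exact interval, so a share below the 3.27% of all chromosomes was not detectable at this count. The segment of chromosome 7 from 140 to 150 Mb, which runs into that window, had 9 of 120 (7.50%, interval 3.49% to 13.8%), and the last of the 9 ended at 147338400, before the window. It held 1783 kb of islands in the mutant and 1528 kb in the wild type, a ratio of 1.17.

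Many mutant-only islands lay close beside wild-type islands. The distance to the nearest wild-type island had a median of 5.2 kb, with quartiles of 1.8 and 14.8 kb. It was under 5 kb for 210 (49.2%, interval 44.3% to 54.0%), under 10 kb for 293 and under 20 kb for 347. On both sides, 54 had a wild-type island within 5 kb and 204 (47.8%) within 20 kb. At the far end, 43 (10.1%) were 50 kb or more from any wild-type island and 28 were 100 kb or more away. Wild-type-only islands were farther from the nearest mutant island, with a median of 9.6 kb and 33.1% (30.0% to 36.3%) under 5 kb. Chromosomes 9 and 3 had the shortest and the longest median distance of the mutant-only islands, 3.1 and 8.6 kb.

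**Figure D3:**
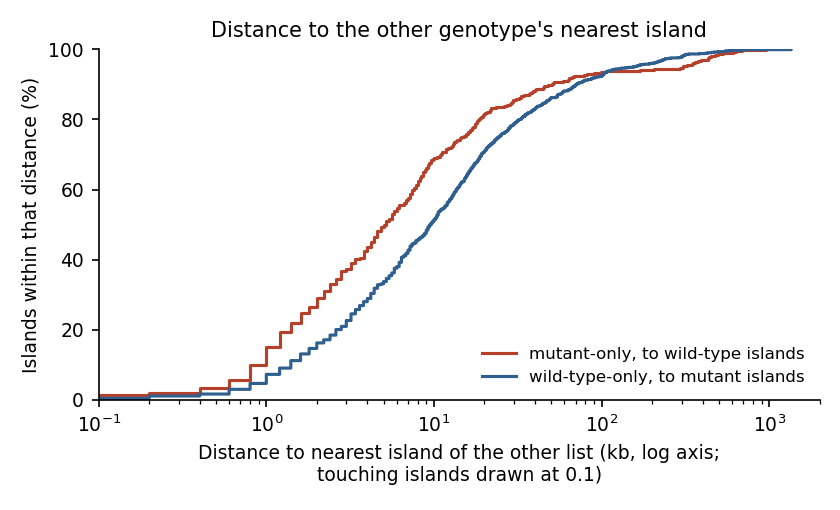
Cumulative share of islands (%) by distance to the nearest island of the other list (kb, log axis), for the 427 mutant-only and the 892 wild-type-only islands. The mutant-only curve lies to the left up to about 100 kb, with 49.2% against 33.1% of islands under 5 kb.

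Distance went with score in no single direction. The 42 islands under 1 kb from a wild-type island had a median of 3.08 per window, the 168 from 1 to under 5 kb 2.90, the 137 from 5 to under 20 kb 2.57, the 37 from 20 to under 50 kb 2.76 and the 43 at 50 kb or more 3.49. The most distant group also held the longest island and the highest score per window, 8.52, both in the largest run, on chromosome 5. All 8 islands of that run lay in this group, with 3.18 to 8.52 per window, and they are neighbours within 198.6 kb. The median of the group without that run was not computed. Over all 427 islands the Spearman correlation of distance and score per window was -0.06, a description across islands of 1 library.

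The wild-type islands nearest to the mutant-only islands were of usual size and were mostly found in both lists. Their median length was 3.8 kb, which is also the median of all wild-type islands on these chromosomes. For 398 of the 427 mutant-only islands (93.2%) the nearest wild-type island had a mutant counterpart. Among all 44597 wild-type islands on these chromosomes, 16.6% had no counterpart. A wild-type island nearest to several mutant-only islands is counted once for each of them. The unmarked wild-type stretch around a mutant-only island had a median length of 34.4 kb, with quartiles of 18.4 and 105.4 kb. It ran from 6.4 kb to 3283.8 kb. For 2 islands it was open, since no wild-type island lay beyond them. The island filled 50% or more of that stretch in 51 cases. In 143 cases (33.5%) it was the lone mutant-only island in the stretch, in 116 there was 1 other, and in 82 the stretch held at least 5. Mutant islands that overlap the wild type can also reach into the stretch from its ends, and with these counted 62 (14.5%) shared the stretch with no other mutant island.

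The flanks of mutant-only islands were marked in both libraries, and more in the mutant. The rule itself favours this direction, because it chose islands in stretches without wild-type islands. For wild-type-only islands it favours the reverse. From 1 to 50 kb outside the islands, mutant islands covered 34.6% of the sequence and wild-type islands 23.8%. At 1 to 5 kb the values were 36.0% and 18.5%, and at 20 to 50 kb 32.6% and 23.9%. Taken one by one, 344 islands had more mutant than wild-type cover within 50 kb, 74 had less and 9 had equal cover. Wild-type cover there had a median of 22.2% and was 0 for 43 islands. It was 20% or more for 234. Mutant islands that overlapped the wild type had flanks with 39.2% mutant and 38.5% wild-type cover from 1 to 50 kb. Wild-type-only islands had 16.2% and 22.6%, so there the wild type was the more covered. The first 1 kb was left out of these means because the calling joins islands of a list that lie up to 600 bp apart, which keeps the mutant list low there.

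**Figure D4:**
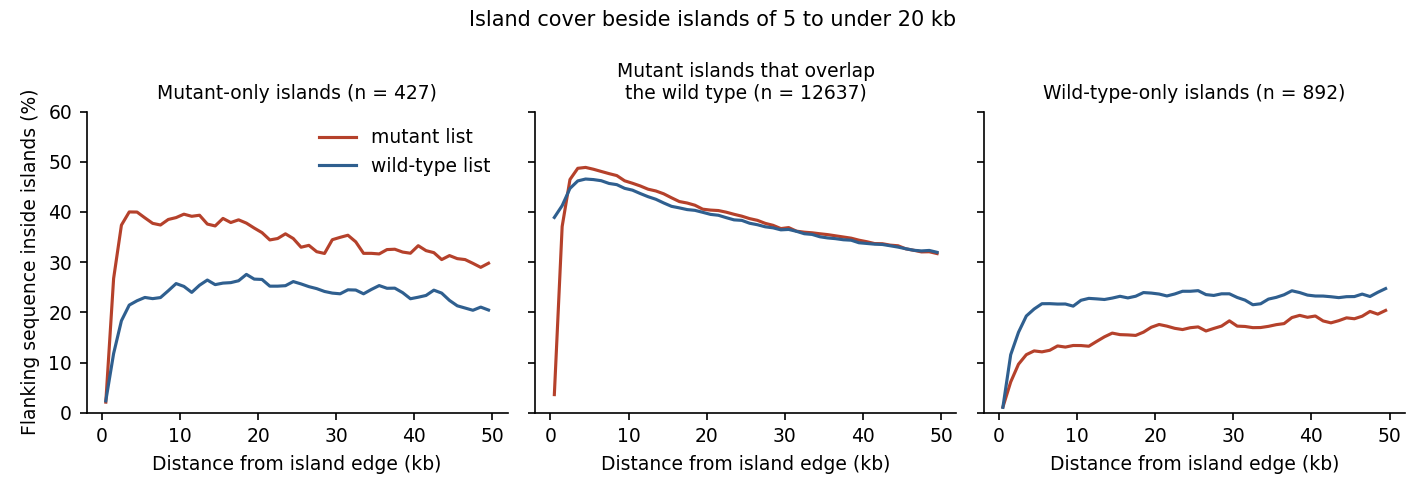
Share of flanking sequence inside islands (%) by distance from the island edge (kb, both sides pooled), for 3 sets of islands. Beside mutant-only islands the mutant line lies above the wild-type line, with 34.6% against 23.8% from 1 to 50 kb. Beside mutant islands that overlap the wild type the lines meet, and beside wild-type-only islands the wild-type line is the higher.

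Neighbouring mutant-only islands less than 50 kb apart were joined into runs. There were 35 runs with 87 islands (20.4%, interval 16.7% to 24.5%), and the other 340 islands stood alone. Of the runs, 27 had 2 islands, 5 had 3, and 1 each had 4, 6 and 8. Of the wild-type-only islands, 19.5% (17.0% to 22.3%) were in 74 runs, of which the largest had 5. That set was larger, with 892 islands against 427, and the share in runs depends on the number of islands. The shares thus do not compare how clustered the sets are. Runs occurred on all 15 chromosomes and had a median span of 38.4 kb. In 18 of the 35 no wild-type island lay within the span, and in 28 the mutant list had further islands there. Islands in runs had a median of 3.19 per window and 11.8 kb to the nearest wild-type island, against 2.73 and 4.5 kb for those alone. Of the 87 islands in runs, 18 were in the 3 largest runs, with medians of 4.71 per window and 58600 bp.

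The largest run was on chromosome 5, from 113116801 to 113315400. It had 8 mutant-only islands of 5.8 to 19 kb with 3.18 to 8.52 per window. With the 3 islands of 26 kb or more that the upper limit leaves out and 2 short ones, the mutant list covered 179.2 kb of its 198.6 kb, or 90.2%, and the wild-type list covered none. The wild-type stretch without islands around it was 1376.8 kb long, and it held 17 mutant islands with 188.6 kb in all. Most of the mutant cover of this stretch thus lay within the run. The strongest of the 8 (113200801 to 113207400, 6.6 kb) had the highest score per window of all 427 islands. The longest (113258201 to 113277200, 19 kb, 5.57 per window) was also the longest of all.

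The run on chromosome 10 spanned 86323201 to 86409400. Its 6 islands had 3.28 to 5.93 per window, and with 7 shorter mutant islands they covered 80.0% of the 86.2 kb, where the wild-type list again covered none. Here wild-type islands lay on both sides. The first island of the run (86323201 to 86342000, 18.8 kb, score 557, the highest total score of the 427) was 18 kb from the one on its left. The stretch between the 2 flanking wild-type islands was 120.6 kb long.

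The run on chromosome 13, from 60705401 to 60804000, was more broken. It had 4 islands of 5.2 to 7.8 kb with 2.72 to 5.03 per window among 15 mutant islands that covered 67.3% of 98.6 kb. Wild-type islands of 2.6 and 3.6 kb lay within its span. The first of these (60777401 to 60780000) lay whole inside a mutant island of 8.8 kb, and 3.4 kb of the second lay in one of 7.4 kb. Wild-type cover of the span was thus 6.2 kb.

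Of the 5 runs with 3 islands, 3 held wild-type islands in their span and 2, on chromosomes 18 and 11, held none. The 2 with the longest summed length were among the former. On chromosome 8, from 34397601 to 34447600, mutant islands covered 74.8% of 50 kb and 2 wild-type islands 6.8 kb. On chromosome 2, from 3093001 to 3138800, mutant islands covered 81.7% of 45.8 kb, and 3 wild-type islands covered 12.6 kb, each of which lay inside a single mutant island of 16.2 kb between the first and second islands of the run. The score per window was 2.13 to 5.16 in the chromosome 8 run and 2.56 to 3.22 in the chromosome 2 run. The 18 islands of the 3 largest runs had a median of 4.71 per window. Without them, the other 409 had a median of 2.80 per window and 4.6 kb to the nearest wild-type island. Their flanks from 1 to 50 kb had 33.0% mutant and 24.7% wild-type cover.

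**Figure D5:**
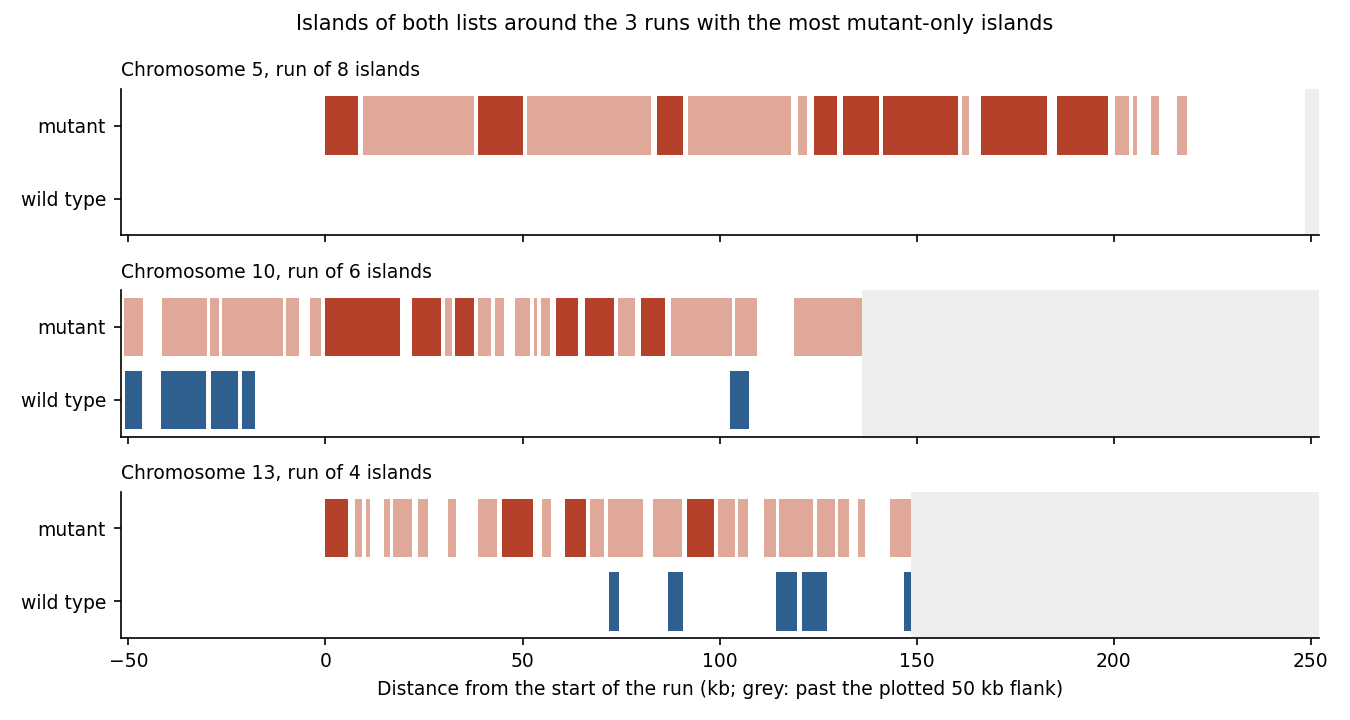
Islands of both lists in and within 50 kb of the 3 runs with the most mutant-only islands, by distance from the start of the run (kb). Dark red bars are mutant-only islands of 5 to under 20 kb, light red bars other mutant islands and blue bars wild-type islands. The wild-type row is empty over the runs on chromosomes 5 and 10 and holds 2 islands over the run on chromosome 13.

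Of the 10 longest mutant-only islands, 4 lay in the chromosome 5 run and 1 in the chromosome 10 run. The other 5 stood outside runs. On chromosome 11, 98770201 to 98785800 (15.6 kb, 4.08 per window) was the lone mutant island in a wild-type stretch of 54.8 kb. On chromosome 12, 77149401 to 77163600 (14.2 kb) had 2.55 per window, 8 kb from the wild-type island on its left. On chromosome 10, 25781001 to 25794400 (13.4 kb) had 2.87 per window, 43.8 kb from one. On chromosome 7, 142184201 to 142196800 (12.6 kb, 2.42 per window) filled 71.6% of its wild-type stretch, with wild-type islands 1.2 and 3.8 kb away. On chromosome 1, 177831001 to 177842200 (11.2 kb, 3.10 per window) lay at an edge, 0.8 kb from a wild-type island on its left and 632.8 kb from the next on its right. Its length was shared by 2 further islands, on chromosomes 17 and 8. These 5 islands outside runs had scores per window below the median of overlapping islands of their length class. That median was 4.86 at 10 to under 15 kb and 5.00 at 15 to under 20 kb. Of the 5 in runs, 3 were above the median of their class and 2, both on chromosome 5, were below it with 3.18 and 4.03.

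Among the 5 islands with the highest score per window, 2 were in the chromosome 5 run, with 8.52 and 6.59. The other 3 differed in their surroundings. On chromosome 16, 98289601 to 98298600 (9 kb, 7.76 per window) had a wild-type island 29 kb to its left and none to its right. On chromosome 12, 20211601 to 20222600 (11 kb, 7.45 per window) was 9.6 kb from a wild-type island on its right and 257.6 kb from one on its left. On chromosome 17, 50803201 to 50814400 (11.2 kb, 7.34 per window) touched a wild-type island on its left, with 0 bp between them. The last of these is mutant-only by the letter of the rule, as its left edge is where a wild-type island ends.

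The 5 islands farthest from any wild-type island were 5.2 to 10.4 kb long, and 4 of them were above the median score per window of the mutant-only islands, 2.83. On chromosome 11, 34629601 to 34637200 (7.6 kb, 2.32 per window) lay 952 kb from the nearest one. On chromosome 8, 94883401 to 94889800 (6.4 kb, 4.57 per window) lay 689.2 kb away, and on chromosome 7, 68549201 to 68559600 (10.4 kb, 3.52 per window) 634.4 kb away. A neighbouring pair on chromosome 12, 24471601 to 24476800 and 24477801 to 24483000 (5.2 kb each, 3.87 and 3.08 per window), lay 604.6 and 598.4 kb away. That pair stood in the longest wild-type stretch without islands, 3283.8 kb, where the mutant list had 26 islands with 71.6 kb in all. The stretch on chromosome 7 had 24 mutant-only islands with 69.8 kb, and those on chromosomes 11 and 8 had 14 and 6. None of these 4 stretches was thus marked by the mutant-only island alone.

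At the weak end, 5 islands had between 1.13 and 1.46 per window. A single window with 4 reads scores 1.75, but the value of an island also counts windows in gaps, which add nothing. The lowest of the 5 was on chromosome 2 (158112601 to 158117800, 5.2 kb) with a score of 29.3, the one below the lowest wild-type score. The others lay on chromosome 8 (72362601 to 72368600 and 36827401 to 36835800), chromosome 2 (108959001 to 108964000) and chromosome 5 (105022201 to 105028200). The second of the chromosome 8 islands was 8.4 kb long and part of a run of 3 whose islands all had less than 2.00 per window. The 5 lay between 6 and 52.2 kb from wild-type islands.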

How the data were processed

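H3K36me3 ChIP-seq was deposited for 2 of the 4 samples, 1 per genotype, as lists of islands with a score per island. Per the submitters' processing notes the authors used Bowtie 1.0.0, SICER 1.1 and mm9. Window (200 bp) and gap (600 bp) come from the names of the deposited files. The use of input and the treatment of duplicate reads are not given in the sources used here. Deposited starts are counted from 0 and were printed from 1.

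Computed here, with pandas 2.3.3, numpy 2.4.6, matplotlib 3.10.9 and scipy 1.17.1 under Python 3.11.15, were overlaps (at least 1 bp), distances, runs, score per window, cover of flanks and exact binomial intervals (95%, Clopper-Pearson). Depth was solved from scores of islands of 1 window. Read totals are unknown, and scores grow with depth. The overlap rule found 200 of 200 islands planted in the gaps of a copy of the wild-type list, and 20 of 20 simulated depths were recovered. Both outcomes follow from how the simulated lists were made, so they check the code only. Named were the 10 longest islands, 5 each with the highest and lowest score per window, the 5 farthest from the wild type, the 5 largest runs, the highest score at 5000 and 4800 bp, and the extreme chromosomes. The other islands and segments were picked after their values were seen. The islands and lists were chosen with earlier results of these data known. Other length limits, chromosomes, score, overlap and run limits were tried. Genes, marker lists and sequences were not analysed here.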

Additional observations from a re-analysis of the deposited data

How the results depend on the processing

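The number of mutant-only islands depended mainly on the length limit. With limits of 4, 6 and 10 kb there were 1081, 198 and 19, which was 5.93%, 2.05% and 0.559% of mutant islands, with 127, 13 and 1 runs. The share in runs was 29.2% at 4 kb and 15.8% at 10 kb. At 10 kb the median score per window was 3.52, the median distance 9600 bp and the share within 5 kb of a wild-type island 26.3%. All autosomes gave 54 runs. Asking for no wild-type island within 1 kb gave 2.95% of mutant islands and 43.6% within 5 kb. Removing wild-type islands under 2 kb gave 4.06% of mutant islands. A run gap of 25 kb gave 23 runs with 13.1% of islands. Values that moved less than 1.5 times (counts) or stayed within the 95% interval (shares, and medians by order statistics) numbered 6 of 9 for the count, 4 of 9 for the share, 6 of 11 and 8 of 11 for runs and islands in runs, 8 of 9 for score, 8 of 9 for distance and 7 of 9 for closeness. Leaving out the 3 largest runs was chosen after seeing the data. No paired analysis was possible because each genotype has 1 library. No replicate could be left out. A missing wild-type island is not the absence of the mark, as it can lie below the calling limit at 2.82 reads per window.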
